A study of Homo sapiens with 18 samples.

Results

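The comparison described here is of ribosome footprints at the membrane of UFM1-KO HEK293 cells with those at the membrane of unedited HEK293 cells (WT). Its libraries were picked by their sample titles, and the comparison was chosen with earlier results of these data known. It rests on 4 of the 18 libraries of the series, namely libraries a and b of UFM1-KO membrane and libraries a and b of WT membrane. HEK293 is a human embryonic kidney line. UFM1-KO is a single clonal line made from it with Cas9 and a guide against UFM1, so that what follows from the loss of UFM1 and what is particular to the clone cannot be told apart. WT cells carried no edit, and the labels give them no control guide. Both lines were grown in DMEM with fetal bovine serum. After digitonin had released the cytosol, the remaining pellet was dissolved in Triton, and this second lysate is the membrane fraction. Its ribosomes were trimmed with RNase I, and the protected fragments were sequenced. The labels name no separate cultures behind a and b, so p-values measure only a spread between libraries of a group, which may be technical. For footprints this spread was estimated over all 12 footprint libraries, those of cytosol and UFSP2-KO included. UFSP2-KO cells, another clonal line made with Cas9 and a guide against UFSP2, appear below where they serve as a second edited line.

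UFM1 is a small ubiquitin-like protein. It is attached to lysines of its targets by a ligase of UFL1, DDRGK1 and CDK5RAP3 that sits on the endoplasmic reticulum. The ribosomal protein RPL26 is a main target, modified on ribosomes bound to that membrane, and UFSP2 is the protease that takes UFM1 off again. Ribosomes at this membrane translate most secreted and membrane proteins, and a footprint count reflects both how much mRNA there is and how densely it is occupied.

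The question was which transcripts had more or fewer footprints at the membrane without UFM1. The unit is a feature, meaning 1 or more Ensembl transcripts with the same count in each of the 12 footprint libraries, named by the first of them. No table used here paired these transcript IDs with genes. Neither UFM1 nor UFSP2 nor RPL26 could therefore be looked up, the knockout and the fractions were not checked against known genes, and the gene lists drawn up for pathways and markers were not used. The features are described below by their levels, length, distribution between fractions and mRNA. Features can share reads where isoforms overlap, so they are not a count of genes.

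Footprint counts were first summed over all transcript entries, before merging. In UFM1-KO membrane libraries a and b they came to 8748060 and 2848544, against 3893984 and 11388755 in those of WT. Over the merged features that were tested, they came to 5946622 and 1925036 in UFM1-KO, against 2622179 and 7636379 in WT. The deepest and the shallowest of these libraries thus lay in different groups. A test was possible for 11065 features, of which 11 and 42 had no count in UFM1-KO libraries a and b, against 8 and 2 in WT libraries a and b. CPM below means counts per 1e+06 after TMM scaling. In the 7894 features averaging 10 CPM or more, the SD of the log2 difference was 0.36 between the UFM1-KO libraries and 0.32 between the WT libraries. Between a UFM1-KO and a WT library it was 0.41 to 0.5. The 100 features with the highest levels took 31.3% and 31.3% of the tested counts in UFM1-KO and 31.8% and 29.8% in WT.

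At the membrane of UFM1-KO 57 of 11065 features rose and 82 fell relative to WT, by edgeR's quasi-likelihood test at a Benjamini-Hochberg adjusted p under 0.05. That is 1.26% of the features tested, with 0.515% higher and 0.741% lower. Before adjustment 1240 features, or 11.2%, had a p under 0.05. The median fitted rise was 2.34-fold and the median fitted fall 2.25-fold. Of the rises, 11 were under 2-fold, 37 were 2-fold to 4-fold and 9 were larger. Of the falls, 20 were under 2-fold, 43 were 2-fold to 4-fold, 3 were 4-fold to 8-fold and 16 had a larger fitted fall. Of these 16, 8 had no count in UFM1-KO, where a fitted fold is not a measured size. Both UFM1-KO libraries lay above both WT libraries for 25.3% of all features tested and below both for 19.4%, and among the 139 called features the groups were apart in 138.

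**Figure D1:**
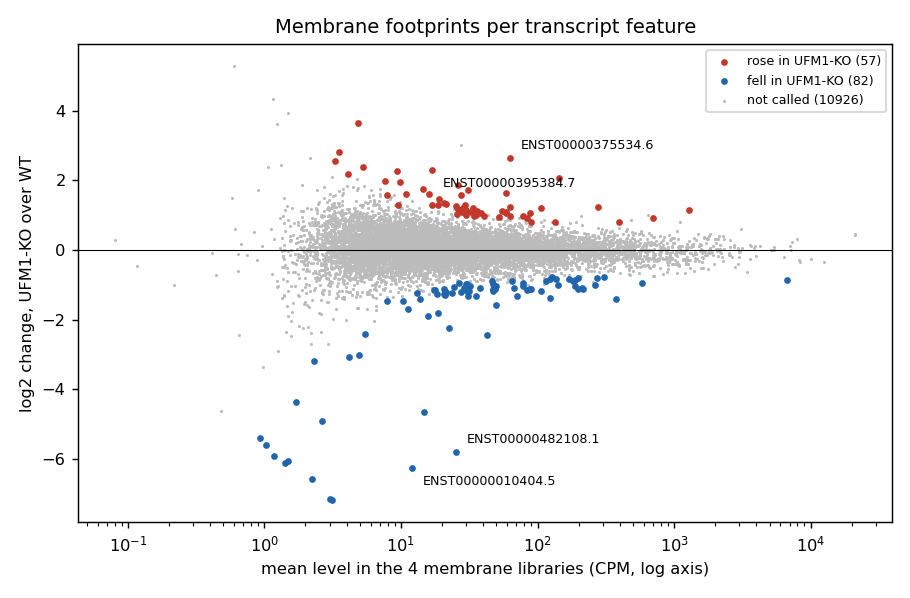
Each point is 1 of 11065 features, with the mean of the 4 membrane libraries in CPM on a log axis and the fitted log2 change of UFM1-KO over WT on the other. The 57 features that rose are red, the 82 that fell are blue, and a group of falls beyond log2 -4 lies mostly at low levels.

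The calls depended on having all 4 libraries. Without UFM1-KO library a there were 6 higher and 8 lower features, and without UFM1-KO library b 15 and 13. Without WT library a there were 11 and 17, and without WT library b 7 and 17. In these fits the lone library is assumed to vary like the other groups. With each of the 4 libraries left out in turn, 9 of the 139 calls held every time, 4 higher and 5 lower, and the 4 transcripts described next were among them. DESeq2 called 11 higher and 34 lower, all of them among the 139, whereas a fit of the 4 membrane libraries alone called 172 and 294 and shared 133 of the 139.

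**Figure D2:**
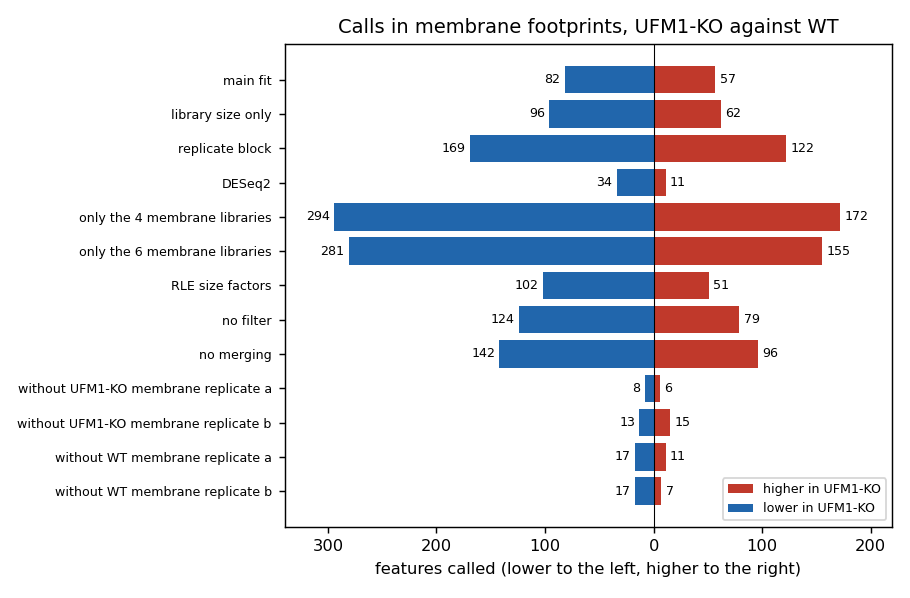
Bars give the number of features called in membrane footprints of UFM1-KO against WT under each setting, lower to the left and higher to the right. The main fit has 57 higher and 82 lower, the fit of 4 libraries alone 172 and 294, and each fit with a library left out between 14 and 28 in all.

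The largest rise among called features of at least 10 CPM was that of transcript ENST00000375534.6, with a deposited length of 162 codons. Its membrane footprints were 124 and 89.6 CPM in UFM1-KO and 1.14 and 0.398 CPM in UFSP2-KO, against 22.5 and 13.7 CPM in WT. Both UFM1-KO libraries stood above every other membrane library, and the lines did not overlap. The log2 change of UFM1-KO over WT was 2.65 (SE 0.29, edgeR adjusted p = 4.17e-06). Its mRNA was 36.6 and 44.1 CPM in UFM1-KO and 0 and 0.302 CPM in UFSP2-KO, against 8.1 and 4.18 CPM in WT. On the log2 scale the mRNA changed by 2.72 (SE 0.41, edgeR adjusted p = 0.00153), close to the change of the footprints. In the cytosol this transcript had 1 count or 0 counts in every one of the 6 libraries.

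The next rise was that of transcript ENST00000395384.7, with a length of 277 codons. At the membrane it had 32.7 and 22.5 CPM in UFM1-KO and 4.55 and 5.57 CPM in UFSP2-KO, against 6.95 and 5.16 CPM in WT. UFM1-KO stood apart here, while UFSP2-KO and WT overlapped. The log2 change over WT was 2.29 (SE 0.31, edgeR adjusted p = 1.02e-04). In the cytosol it had 35 and 30.8 CPM in UFM1-KO and 8.87 and 6.17 CPM in UFSP2-KO, against 9.99 and 8.29 CPM in WT, which is a log2 change over WT of 1.9 (SE 0.33, edgeR adjusted p = 0.00951). Its mRNA was 17.7 and 25.4 CPM in UFM1-KO and 5.97 and 4.23 CPM in UFSP2-KO, against 9.6 and 14.5 CPM in WT. UFM1-KO was highest in mRNA too, but its log2 change over WT of 0.84 (SE 0.32, edgeR adjusted p = 0.197) did not pass the test. Footprints less mRNA gave a log2 difference of 1.38 (SE 0.45, edgeR adjusted p = 0.983), which did not pass either, nor did that of the other 3 named transcripts (edgeR adjusted p of 0.983 to 1).

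The largest fall by the same rule was that of transcript ENST00000010404.5, a feature of 4 entries with a length of 135 codons. At the membrane it had 1 count in each UFM1-KO library, or 0.185 and 0.536 CPM. UFSP2-KO had 114 CPM in both libraries, and WT had 18 and 29.5 CPM. The summed membrane counts were 2 in UFM1-KO and 255 in WT, and the ratio of the normalised sums, UFM1-KO over WT, was 0.0104 with an exact 95% binomial interval of 0.00125 to 0.0378, which covers counting error only. The fitted log2 change was -6.27 (SE 0.55, edgeR adjusted p = 1.09e-07). With so few counts in UFM1-KO, this SE is smaller than the counting error alone and understates the uncertainty. Its mRNA, taken from the first of the 4 entries, showed the same order of lines. It had 1 count and 0 counts in UFM1-KO and 30.1 and 40.2 CPM in UFSP2-KO, against 12.1 and 12 CPM in WT. On the log2 scale the fitted change of mRNA, UFM1-KO over WT, was -8.71 (SE 0.57, edgeR adjusted p = 1.41e-07), with an SE too small for the same reason. In the cytosol it had 0 counts in both UFM1-KO libraries, while UFSP2-KO had 2 and 16 and WT had 1 and 3, with no call for UFM1-KO against WT (edgeR adjusted p = 0.472).

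The second fall was that of transcript ENST00000482108.1, with a length of 305 codons. At the membrane it had 0.369 and 2.15 CPM in UFM1-KO, from 2 counts and 4 counts. UFSP2-KO had 172 and 153 CPM, and WT had 47.8 and 51.2 CPM. The fitted log2 change of UFM1-KO over WT was -5.81 (SE 0.42, edgeR adjusted p = 1.83e-09). From so few counts in UFM1-KO, this SE also understates the uncertainty. In the cytosol it had 0 counts and 1 count in UFM1-KO and 100.2 and 105 CPM in UFSP2-KO, against 55 and 40.3 CPM in WT (edgeR adjusted p = 1.12e-07 for UFM1-KO against WT). In mRNA it had 3 counts and 5 counts in UFM1-KO and 42.5 and 34.3 CPM in UFSP2-KO, against 29.3 and 41.6 CPM in WT (edgeR adjusted p = 7.14e-08 for UFM1-KO against WT). Unlike the other fall, it was thus low in UFM1-KO in both fractions with enough counts to test each.

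**Figure D3:**
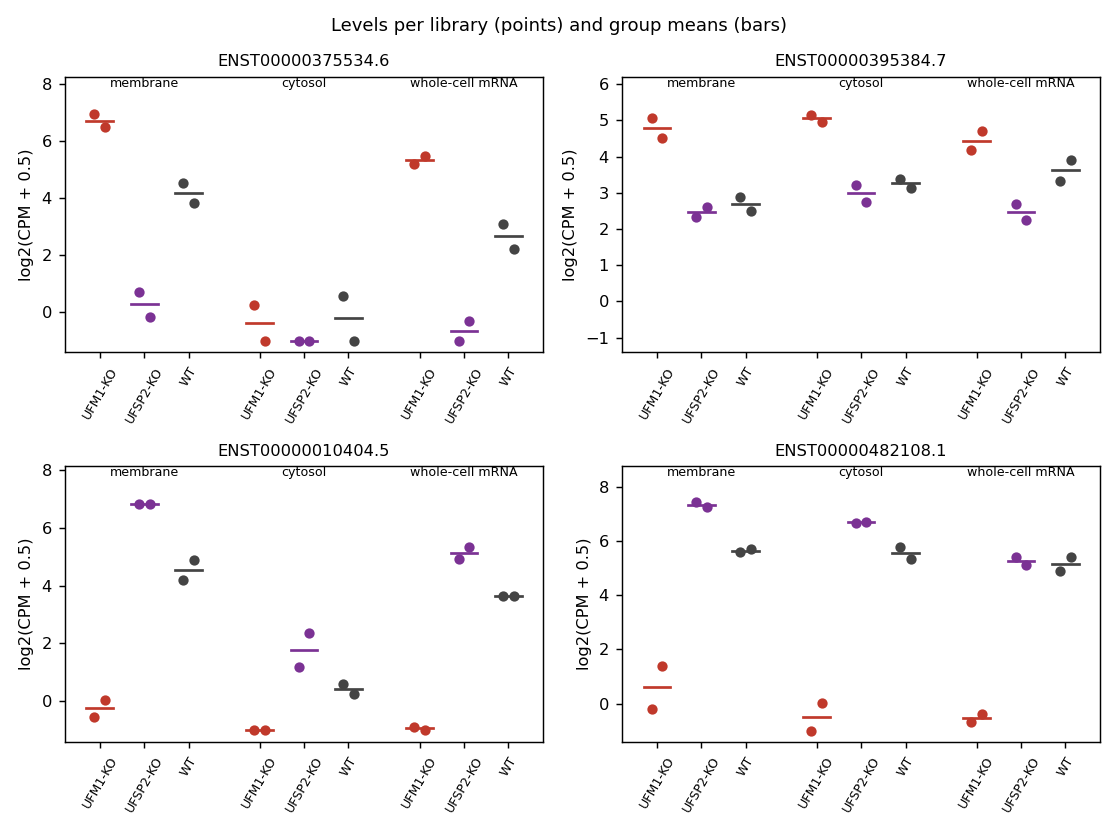
Each panel is 1 transcript, with log2(CPM + 0.5) of every library as points and the mean of 2 libraries as a bar, by line within membrane footprints, cytosol footprints and whole-cell mRNA. The 2 transcripts that rose are highest in UFM1-KO at the membrane, and the 2 that fell are lowest there and highest in UFSP2-KO.

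The membrane libraries of the edited lines can be compared without WT. In that test 21.4% of features differed between UFM1-KO and UFSP2-KO, 11.2% higher and 10.2% lower in UFM1-KO, many more than between UFM1-KO and WT. All 4 transcripts above were among them, and the values stand in the closing section. For the 57 features that rose in UFM1-KO, the median membrane level was 42.3 and 41.8 CPM in UFM1-KO and 6.82 and 6.76 CPM in UFSP2-KO, against 18 and 18.3 CPM in WT. For the 82 that fell it was 20.4 and 18 CPM in UFM1-KO and 71.3 and 66 CPM in UFSP2-KO, against 47.4 and 43.5 CPM in WT. By these medians WT lay between the edited lines in both sets, but not every feature followed this order. The changes of either knockout over WT share the WT libraries, and their likeness was not tested.

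In 12 of the 16 features with a fitted fall of over 8-fold, both UFM1-KO membrane libraries had 3 counts or fewer, and 8 of these had no count in either. Over the 8, WT levels were 4.29 to 15.4 times what 3 counts over the 2 UFM1-KO libraries would give. These ratios are a rough bound on the fall, and they leave out counting error in WT and the spread between libraries. The bound was over 8-fold for 3 of the 8 and not for the other 5. The group's mean membrane levels were 0 to 1.26 CPM in UFM1-KO and 4.6 to 162 CPM in UFSP2-KO, against 1.86 to 49.5 CPM in WT. Of the 16, 13 had a mean under 10 CPM over the 4 libraries. By the filter on low counts, 11 would have been tested on the UFM1-KO and WT membrane libraries alone, and the others were tested because of their counts in other libraries, so their level in UFSP2-KO is a description only. All 16 were tested in mRNA and all 16 were called lower there.

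The other 66 falls had smaller fitted changes and higher levels, with a median over features of 29.8 CPM in UFM1-KO and 67.1 CPM in WT. Of the 65 tested in mRNA, 21 were called lower. The fall at the highest level was a feature of 838 codons, with 4913 and 4509 CPM in UFM1-KO and 13294 and 13226 CPM in UFSP2-KO, against 9065 and 8143 CPM in WT (log2 change over WT -0.87, SE 0.15, edgeR adjusted p = 0.0028). Its cytosol footprints fell as well, to 3625 and 3410 CPM in UFM1-KO, against 6043 and 6264 CPM in WT (log2 -0.81, SE 0.15, edgeR adjusted p = 0.0159). Its mRNA was 2504 and 3360 CPM in UFM1-KO and 4072 and 4577 CPM in WT, a log2 change of -0.56 that did not pass the test (SE 0.21, edgeR adjusted p = 0.188). The 82 falls together took 0.816% and 0.787% of the tested counts in UFM1-KO libraries a and b, against 1.63% and 1.49% in WT.

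The 57 rises took 0.601% and 0.6% of the tested counts in UFM1-KO, against 0.275% and 0.273% in WT. The rise at the highest level was a feature of 232 codons, with 1870 and 1668 CPM in UFM1-KO and 15.9 and 13.1 CPM in UFSP2-KO, against 816 and 780 CPM in WT. Its log2 change over WT was 1.15 (SE 0.24, edgeR adjusted p = 0.0149), and its mRNA rose by 1.52 (SE 0.22, edgeR adjusted p = 0.00126). In 1 called rise, the one with the largest fitted change, the groups overlapped. It had 16.4 and 1.07 CPM in UFM1-KO and 1.23 and 0.698 CPM in WT, and only UFM1-KO library a stood above the rest. In the cytosol the same feature was called lower, with 28.1 and 18.2 CPM in UFM1-KO and 62 and 85 CPM in WT.

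Whole-cell mRNA comes from other libraries of the same lines and shares no counts with the footprints. The mRNA of a feature is that of its first transcript only, which need not stand for the others merged with it. Of the rises at the membrane 43 of 57 had a single transcript, and of the falls 66 of 82. In mRNA 1.97% of 13889 features differed between UFM1-KO and WT, 0.382% higher and 1.59% lower. Of the 57 rises at the membrane 54 were tested in mRNA. In 51 of them (94.4%) the mRNA differed from WT in the same direction, and 17 were called higher and 0 lower. Of the 82 falls 81 were tested, 80 (98.8%) differed in the same direction, and 37 were called lower and 0 higher. Over all 10824 features present in both tests, 63.4% had the same sign. The median log2 change of mRNA was 0.92 for the rises and -1.05 for the falls, beside 1.23 and -1.17 for their footprints and 0.016 for the mRNA of all features.

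The change of membrane footprints less that of mRNA was tested in a single model over both assays. It called 0 of 12616 features (0%) by edgeR, and at an unadjusted p under 0.05 there were 540 (4.28%). Even a log2 difference of 2.26 (SE 0.42, edgeR adjusted p = 0.122) did not pass. The lack of calls therefore does not show that footprints changed only as far as mRNA. Among the rises at the membrane the median difference was 0.31 and among the falls -0.31. These features were chosen by their footprints, so the larger footprint change is a description only. For the 37 rises whose mRNA was not called, mRNA had a median change of 0.64 and footprints of 1.17. For the 44 such falls these were -0.73 and -1.07. Not passing the mRNA test therefore did not mean that these features had equal mRNA in both lines.

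Cytosol footprints are separate libraries as well. In the cytosol 0.85% of features differed between UFM1-KO and WT, 0.163% higher and 0.687% lower. Of the 57 rises at the membrane 51 (89.5%) differed in the same direction in the cytosol, 5 were called higher and 1 lower. Of the 82 falls 66 differed in the same direction and 15 were called lower, and 7 had no cytosol count in either line. Over all features 59.9% had the same sign in both fractions. Many of the called features had few cytosol counts. Of the rises, 18 and 20 had 3 counts or fewer in UFM1-KO cytosol libraries a and b, and 26 and 20 in those of WT. Of the falls, 31 and 31 did so in UFM1-KO, and 23 and 21 in WT. Directions of such features are uncertain. The median cytosol change was 0.73 for the rises and -0.89 for the falls, beside 0.007 for all features.

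**Figure D4:**
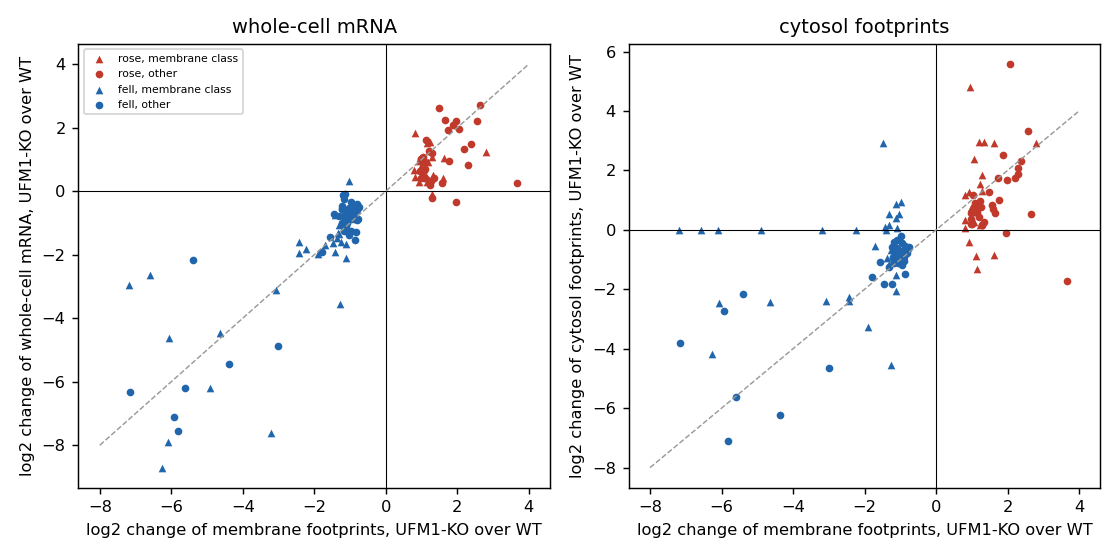
Points are the called features, with the log2 change of membrane footprints on the horizontal axis and that of whole-cell mRNA (left) or cytosol footprints (right) on the vertical axis, UFM1-KO over WT. Triangles are members of the membrane class and the dashed line marks equal change. In mRNA 51 of 54 rises and 80 of 81 falls lie on the same side of 0, and 7 falls without cytosol counts lie at 0 in the right panel.

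Features were then divided by where their footprints lie, using only the ratio of membrane to cytosol in UFSP2-KO. Its libraries were outside the contrast of UFM1-KO with WT, but they entered the same fit, its filter and its estimate of the spread. The membrane class was over 2-fold higher at the membrane there at an adjusted p under 0.05, and held 2502 of 11065 features. Of the class 22 rose and 31 fell in UFM1-KO, 0.879% and 1.24%, against 0.515% and 0.741% of all features. Called features made up 2.12% of the class against 1.26% of all features, a difference that was not tested. Of the 699 features over 2-fold lower at the membrane 3 rose and 3 fell, and of the 7864 others 32 rose and 48 fell. The split depends on the level in UFSP2-KO, since a feature with hardly any counts there cannot enter a class. Of the 32 rises outside both classes, 6 had over 10 times the CPM at the membrane that they had in the cytosol of UFM1-KO. These had only 0.284 to 1.56 CPM at the membrane of UFSP2-KO. The shares by class are therefore a description only. The membrane class held 9 of the 16 features with a fitted fall of over 8-fold. Only 11 of these 16 would have been tested on the UFM1-KO and WT membrane libraries alone. Counts in UFSP2-KO could both admit a feature to the test and place it in the class. This share is therefore a description only as well.

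The median change of the class at the membrane was small, 0.095 on the log2 scale against 0.048 for all features. Its excess over all features was 0.047, and between 0.0083 and 0.079 with each of the 4 libraries left out. The features over 2-fold lower at the membrane had a larger median of 0.13, an excess of 0.084, which was -0.01 without UFM1-KO library a. The membrane class held 28.1% and 28.8% of the tested counts in UFM1-KO and 26.5% and 25.9% in WT. In mRNA the median of the membrane class was -0.031. In the cytosol its median was larger, 0.29 against 0.007 for all features. The features over 2-fold lower at the membrane had a cytosol median of -0.16. These cytosol medians were not tested. Falls within the class had a median of -1.42 at the membrane and -1.7 in mRNA, and 20 of 31 were called lower in mRNA. Outside the class the 51 falls had a median of -1.1 at the membrane and -0.82 in mRNA, with 17 of 50 called. All 51 of these had a negative cytosol change as well, and 15 were called lower. In the class only 24 of the 31 falls had any cytosol count in these lines, with 15 in the same direction and 0 called by edgeR, on a median of 5 counts summed over 4 libraries.

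Each transcript also has a deposited length. It is a whole number per transcript, the same in every footprint library, and was taken, from its values, as codons of the coding region less a fixed trim. The median length was 275 codons for the 57 rises and 597.5 for the 82 falls, beside 455 for all 11065 features, a contrast that was not tested. It was smaller in larger sets of calls, with medians of 295.5 for rises and 463.5 for falls in the fit of the 4 membrane libraries alone, and of 279 and 488 with the replicate block. Under 100 codons 1 feature rose and 4 fell, 1.19% of that class. From 100 to just under 200 codons 15 rose and 4 fell (1.43%), and from 200 to just under 400 codons 21 rose and 17 fell (1.27%). From 400 to just under 800 codons 10 rose and 29 fell (0.999%), and from 800 to just under 1500 codons 9 rose and 20 fell (1.62%). With 1500 or more 1 rose and 8 fell (1.46%). The shortest class thus did not share the balance towards rises of the 2 classes next to it. In mRNA the medians lay in the same order, 354 codons for features called higher and 484 for those called lower. In the cytosol they lay in the other order, 449 codons for features called higher and 259.5 for those called lower.

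The libraries themselves differed with length across all features. For features under 100 codons the median log2 ratio was 0.28 and 0.18 for UFM1-KO library a over WT libraries a and b, but 0.12 and 0.047 for UFM1-KO library b. For 1500 or more codons it was -0.043 and -0.024 for library a and 0.044 and 0.066 for library b. Library a was thus lower for long than for short features against both WT libraries, whereas library b was so against WT library a and not against WT library b. The group medians were 0.16 for the shortest and 0.0072 for the longest features. Without UFM1-KO library a the excess over all features was 0.035 for features under 100 codons and 0.028 for those of 1500 or more. The few remaining calls had median lengths of 334.5 codons for rises and 450.5 for falls, beside 453 for all features tested. The contrast was larger with any other library left out. Medians were 277 and 596 without UFM1-KO library b, 277 and 698 without WT library a, and 275 and 596 without WT library b. The part of UFM1-KO library a in the length of the called features was not tested.

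**Figure D5:**
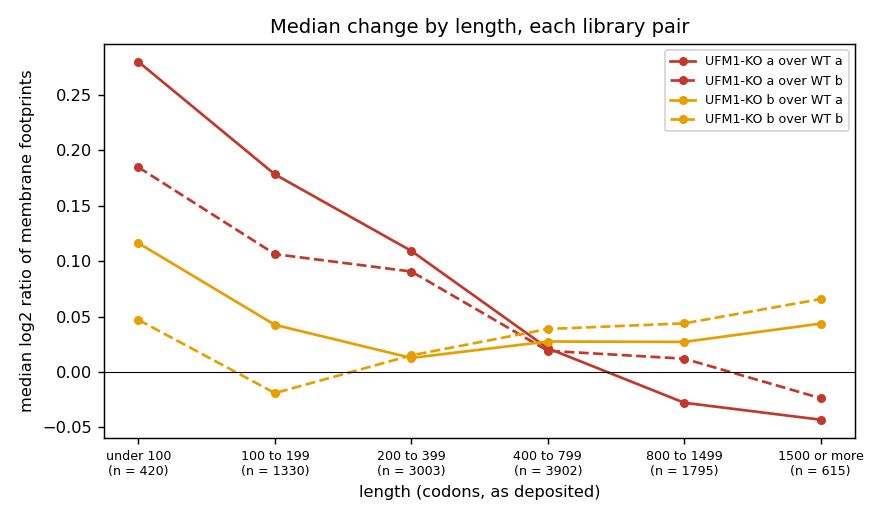
Lines give the median log2 ratio of membrane footprints, as log2(CPM + 0.5), in 6 classes of length for each pair of a UFM1-KO with a WT library. The pairs with UFM1-KO library a run from 0.28 and 0.18 at under 100 codons to -0.043 and -0.024 at 1500 or more, and those with library b from 0.12 and 0.047 to 0.044 and 0.066.

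By level, calls made up 0.788% of the 3171 features under 10 CPM, 1.2% of those at 10 to 30 CPM, 1.64% at 30 to 100 CPM and 1.94% at 100 to 300 CPM, but 1.11% of the 630 features of 300 CPM or more. The SD of the log2 difference between libraries of a group was 0.69 in UFM1-KO and 0.59 in WT under 10 CPM, and 0.25 in UFM1-KO and 0.23 in WT at 100 to 300 CPM. At low levels a change of the median size could thus go undetected at this depth.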

How the data were processed

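Ribosome footprints of membrane and cytosol fractions and whole-cell mRNA were measured in 3 lines, with 2 libraries in each of 9 groups. The deposited tables hold raw counts per Ensembl transcript and a length. Per the submitters' processing notes, TopHat2 2.1.1 and the build GRCh38 were used. Which program counted the reads, and on which annotation, is not given in the sources used here. Of 26679 footprint entries 21223 had a count, and entries with equal counts in all 12 libraries were merged into 14377 features. Of 26214 mRNA entries matched by ID without version, the 25605 whose length was larger by 1 than in the footprint tables were used.

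Counts were tested in R 4.3.3 with edgeR 4.0.16 (filterByExpr with a minimum count of 10, TMM, quasi-likelihood, 1 coefficient per group) over the 12 footprint libraries, the 6 mRNA libraries or all 18, two-sided. Each SE was derived from the F statistic, and it understates the uncertainty where a group had only a few counts or none. DESeq2 1.42.0, other scalings, fewer libraries and a replicate block were alternatives. The functions were run on simulated counts with known changes. These counts were drawn independently for each library and feature with the fitted spread. They therefore do not test trends that run across the features of a library, such as those with length. Transcripts were named as the 2 largest rises and falls among calls of at least 10 CPM whose groups did not overlap. The comparison and the lists were chosen with earlier results of these data known. Gene lists could not be matched to transcript IDs and were left out. Other features were singled out after their values were seen. Counting intervals cover counting error only.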

Additional observations from a re-analysis of the deposited data

Results flagged for a closer look

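The 4 transcripts described by name were flagged because the change of their membrane footprints over WT differed between the 2 knockout lines, by edgeR's direct test of UFM1-KO against UFSP2-KO, in which WT libraries cancel. The log2 difference, UFM1-KO less UFSP2-KO, was 7.17 for ENST00000375534.6 (SE 0.51, edgeR adjusted p = 1.03e-10). It was 2.46 for ENST00000395384.7 (SE 0.35, edgeR adjusted p = 1.36e-05). It was -8.48 for ENST00000010404.5 (SE 0.48, edgeR adjusted p = 1.45e-12). It was -7.51 for ENST00000482108.1 (SE 0.39, edgeR adjusted p = 1.84e-13). For all but ENST00000395384.7, an edited line had only a few counts, so the SE understates the uncertainty. Each knockout is 1 clone, so gene and clone cannot be told apart in these differences.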

How the results depend on the processing

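The 4 named transcripts kept direction and call under all 12 alternatives run, with log2 changes of 2.26 to 2.97 for ENST00000375534.6, 1.95 to 2.49 for ENST00000395384.7, -6.77 to -5.4 for ENST00000010404.5 and -6.92 to -4.5 for ENST00000482108.1. Counts moved far more. Membrane calls (57 higher, 82 lower) were 11 and 34 with DESeq2, 172 and 294 with the 4 membrane libraries alone, 155 and 281 with the 6 membrane libraries, 79 and 124 with no filter, 96 and 142 without merging, and 6 to 15 and 8 to 17 with a library left out. Cytosol calls (18 and 76) were 7 and 40 with DESeq2, 23 and 27 when scaled by library size alone (median log2 change of all features 0.15), and 0 to 46 and 6 to 64 with a library left out: without WT library b 0 were higher (1079 features at an unadjusted p under 0.05), and without UFM1-KO library b 23 were higher and 6 lower. Calls between the knockouts (1238 and 1134) were 587 and 689 with DESeq2, and 574 to 888 and 524 to 695 with a library left out. Messenger RNA calls (53 and 221) were 134 and 413 with DESeq2, 30 higher when scaled by library size alone, and 9 to 262 and 50 to 336 with a library left out, the lowest without WT library b and the highest without UFM1-KO library b. Footprint less mRNA calls were 0 to 2 higher and 0 to 7 lower with a library left out, 2 and 7 without UFM1-KO mRNA library b. The cause of these shifts was not tested.

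With the replicate block, membrane calls were 122 and 169, all 139 main calls among them, and cytosol calls were 62 and 184. The letters share only a name in the labels. Differences of library a less b at the membrane correlated at 0.138 between UFM1-KO and WT, across features. One feature per gene was not run for want of gene names.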

Other observations

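Of the features that changed at the membrane, 4 had mRNA that differed from WT in the other direction, and none of these mRNA changes passed the test by edgeR. The strongest case was a feature of 367 codons with 17.2 and 13.9 CPM at the membrane in UFM1-KO and 4.9 and 3.63 CPM in WT. Its mRNA was 49.3 and 49.8 CPM in UFM1-KO and 58.1 and 68.2 CPM in WT, and its cytosol footprints were 15.8 and 11.1 CPM in UFM1-KO and 14 and 14.5 CPM in WT. The change of membrane footprints less that of mRNA was 2.26 (SE 0.42) and did not pass the edgeR test, with an adjusted p of 0.122. It was singled out after its values were seen.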
